A study of Mus musculus with 15 samples.

Results

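Genes of 6 enzyme families that handle drugs and other foreign compounds were followed through 4 mouse mammary tumour models: aldehyde dehydrogenases (Aldh), soluble and mitochondrial glutathione transferases (Gst), cytochromes P450 (Cyp), UDP-glycosyltransferases (Ugt), sulfotransferases (Sult) and carboxylesterases (Ces). The families were chosen with earlier results of these data known. Within them, genes were taken by symbol alone, with no measured value used, and came to 72 of the 17271 genes in the deposited table. There were 19 Aldh, 18 Gst, 26 Cyp, 3 Ugt, 3 Sult and 3 Ces genes. RefSeq names 204 protein-coding mouse genes of these symbol patterns, of which 71 were in the table, and the pseudogene Cyp4f41-ps was the other member. Coverage was near complete for Aldh (19 of 21) and Gst (18 of 22) and partial for Cyp (25 of 99), Ugt (3 of 22), Sult (3 of 21) and Ces (3 of 19), and the rest were not analysed here.

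RNA came from 15 mammary tumours grown in mice of the BALB/c strain and labelled p53-null, a genotype that all groups share. The models were 2151R (4 samples, 2 titled NT or NT2 and 2 with codes whose meaning is not given), T11 (1 sample), 2225L (2 samples, 1 titled T-Vivo) and 2208L (8 samples). Within 2208L, the titles mark 4 samples as PBS and 3 as 3day nt, and ROSEN marks the remaining sample as well as 1 of 2225L. No title names a chemotherapy agent, the ages of the mice were not given in the sources used here, and nothing says whether samples came from separate animals, so p-values measure only the spread between these samples.

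Aldehyde dehydrogenases oxidise reactive aldehydes to acids, and ALDH1A1 and ALDH3A1 are known for inactivating the aldehyde form of activated cyclophosphamide, while the ALDH1A enzymes also make retinoic acid. Glutathione transferases join glutathione to electrophiles, among them alkylating drugs and products of lipid peroxidation. P450 enzymes add oxygen to drugs, sterols, fatty acids and retinoids, and glycosyl- and sulfotransferases attach sugar or sulfate to many of the same substrates. Carboxylesterases cleave esters, and many of these genes are best known from liver.

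Several members are near copies of each other, which bears on how far their values can be read. Gstp1, Gstp2 and Gstp3 lie together on chromosome 19 (4035411 to 4059605, GRCm38.p6), and the coding sequences of Gstp1 and Gstp2 have 633 bases each and differ at 12 positions (98.1% identity). Gstp3 had 71.6% identity to either. The first 90 coding bases of Gstp1 and Gstp2 are shown, from the GENCODE transcripts of the same build, with the 6 positions that differ in capitals. They were chosen as the 90 bases in frame with the most differences, the kind of sites that separate reads of the 2 genes.
Gstp1: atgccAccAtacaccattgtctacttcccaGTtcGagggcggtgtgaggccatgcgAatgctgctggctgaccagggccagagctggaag
Gstp2: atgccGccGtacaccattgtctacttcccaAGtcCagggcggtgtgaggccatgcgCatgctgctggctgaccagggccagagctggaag
Windows of 50 bases were used to ask how much of each gene's transcript occurs in another gene. For Gstp2, 54.3% of windows did, and for Gstp1 33.7%, whereas Gstp3 shared 0%. Reads from Gstp1 and Gstp2 can therefore be split between them by the authors' quantification, and the values of Gstp2 are uncertain to that extent.

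Aldh1a1 and Aldh1a7 are also neighbours on chromosome 19 (20492583 to 20727556), and their coding sequences, 1506 bases each, differ at 126 positions (91.6% identity). Coding bases 310 to 399 are shown, chosen as the 90 bases in frame with the most differences, with the 19 positions that differ in capitals.
Aldh1a1: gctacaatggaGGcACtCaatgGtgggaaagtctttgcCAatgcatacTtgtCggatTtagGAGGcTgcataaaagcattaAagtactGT
Aldh1a7: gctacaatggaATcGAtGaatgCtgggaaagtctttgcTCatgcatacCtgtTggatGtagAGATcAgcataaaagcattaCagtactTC
Only 3.06% of the 50-base windows of Aldh1a1 and 7.49% of those of Aldh1a7 were shared, in each case with the other gene. Ugt1a6a and Ugt1a7c, which lie on chromosome 1 and have their last exons in common, shared 52.1% and 53.7% of their windows. Over all 72 members, 10 shared more than 10% of their windows with another gene and 33 shared none. Besides those already given, Aldh4a1, Cyp4a10, Aldh3b2, Gstm1, Cyp4f16 and Gstt3 were over 10%.

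Aldh1a1 and Aldh1a7 were both highest in 2225L, and the 250 bases before their starts are shown from RefSeq (GRCm38.p6), with runs of at least 20 bases that both share in capitals. The window of Aldh1a1, 1 of 2 starts in RefSeq, is chr19:20601718-20601967 on the plus strand, and that of Aldh1a7 is chr19:20727557-20727806 on the minus strand.
Aldh1a1: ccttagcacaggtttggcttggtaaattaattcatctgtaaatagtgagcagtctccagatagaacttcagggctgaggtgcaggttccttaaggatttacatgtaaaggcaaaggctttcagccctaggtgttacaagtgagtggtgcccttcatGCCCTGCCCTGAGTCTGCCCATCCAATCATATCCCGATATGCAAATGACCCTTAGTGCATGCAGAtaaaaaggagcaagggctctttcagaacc
Aldh1a7: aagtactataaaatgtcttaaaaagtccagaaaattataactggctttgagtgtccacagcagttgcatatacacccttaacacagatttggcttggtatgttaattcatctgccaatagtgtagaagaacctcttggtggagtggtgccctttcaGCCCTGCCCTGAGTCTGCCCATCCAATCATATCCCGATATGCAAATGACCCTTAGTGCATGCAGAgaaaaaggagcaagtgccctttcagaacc
The pair shared a single run of 65 bases. Gstp1 (chr19:4037913-4038162, minus strand) and Gstp2 (chr19:4042222-4042471, minus strand) are shown in the same way.
Gstp1: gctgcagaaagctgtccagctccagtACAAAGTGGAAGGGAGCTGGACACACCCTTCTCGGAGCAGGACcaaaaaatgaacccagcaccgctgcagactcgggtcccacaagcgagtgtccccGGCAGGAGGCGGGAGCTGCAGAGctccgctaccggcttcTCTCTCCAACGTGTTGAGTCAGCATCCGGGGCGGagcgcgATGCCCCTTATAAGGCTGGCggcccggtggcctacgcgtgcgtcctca
Gstp2: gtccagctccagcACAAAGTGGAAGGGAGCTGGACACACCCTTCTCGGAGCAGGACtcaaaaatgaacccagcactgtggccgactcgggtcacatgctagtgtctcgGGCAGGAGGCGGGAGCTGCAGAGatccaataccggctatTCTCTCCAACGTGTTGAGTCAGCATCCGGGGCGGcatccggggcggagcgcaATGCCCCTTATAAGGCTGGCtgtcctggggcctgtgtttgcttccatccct
Their shared runs added up to 120 of the 250 bases, the longest of 43. Across the families, RefSeq promoters were found for 56 of 72 members, 68 promoters in all. The antioxidant response element TGACNNNGC, searched on both strands, was present in 6 of 68 (8.82%) against 10.2% of all 32851 promoters, and the xenobiotic response element core TNGCGTG in 3 of 68 (4.41%) against 4.1%. These letters are a description of the windows and not of factor binding.

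The table holds log2 values centred for each gene on an unstated reference level, so a value is high or low only against the same gene in other samples and levels of different genes cannot be ranked. Differences below are in log2 units with the SE of the limma fit, and a gene is called where its Benjamini-Hochberg adjusted p over all 17271 genes is under 0.05. Folds are 2 raised to that difference, but the authors' offset for low values is unknown. The table has no counts, so depth is unknown. All 2151R samples, the PBS samples and the 3day nt samples each come from their own range of library numbers, so library range and group cannot be told apart there. Means of cell type markers also differed between the models. The mean of 8 epithelial markers ran from -3.27 to -2.30 in 2151R, was -7.18 in T11, 3.21 and 3.36 in 2225L, and ran from 1.0 to 2.16 in 2208L. Only 2 of these 8 were called in 2225L against 2208L (25%, against 32.9% of all genes), with a median difference of 0.14. Values of those models did not overlap for 2 of the 8, the keratins Krt5 (7.47 and 8.12 in 2225L) and Krt14 (6.63 and 5.84). The mean of 8 macrophage markers ran from 0.54 to 0.93 in 2151R, was 1.13 in T11, -1.51 and -0.72 in 2225L, and ran from -1.13 to 0.66 in 2208L. The part of these differences in the results was not tested, and in bulk tumour fewer cells of a type and less RNA per cell cannot be told apart. Hepatocyte markers were not analysed here.

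In 2225L, glutathione transferases were mostly higher than in the other models, and Aldh1a1 and Aldh1a7 were far higher. The mean of 13 of the 18 Gst genes (72.2%) was highest in 2225L, against 28.7% of all genes, and the same held for 31 of the 72 members (43.1%). Against 2208L, 27 of the 72 members were called up in 2225L and 9 down, 36 in all (50%), where 32.9% of all genes were called, 15.6% higher and 17.3% lower. The median difference was 0.76 over the members and -0.04 over all genes. Values of 2225L and 2208L did not overlap for 34 members (47.2%) and for 31.7% of all genes. Against 2151R, 24 members were called higher in 2225L and 15 lower, where 48.6% of all genes were called, 22.8% higher and 25.8% lower, and values did not overlap for 49 members (68.1%) and for 62.4% of all genes. In 2151R against 2208L the members did not lean one way: 16 were called higher and 14 lower (41.7%), where 48.8% of all genes were called, 26.1% higher and 22.7% lower. Values did not overlap for 26 members (36.1%) and for 38.8% of all genes. The 2 comparisons with 2208L use the same 8 samples of that model, as those with 2225L use the same pair.

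**Figure D1:**
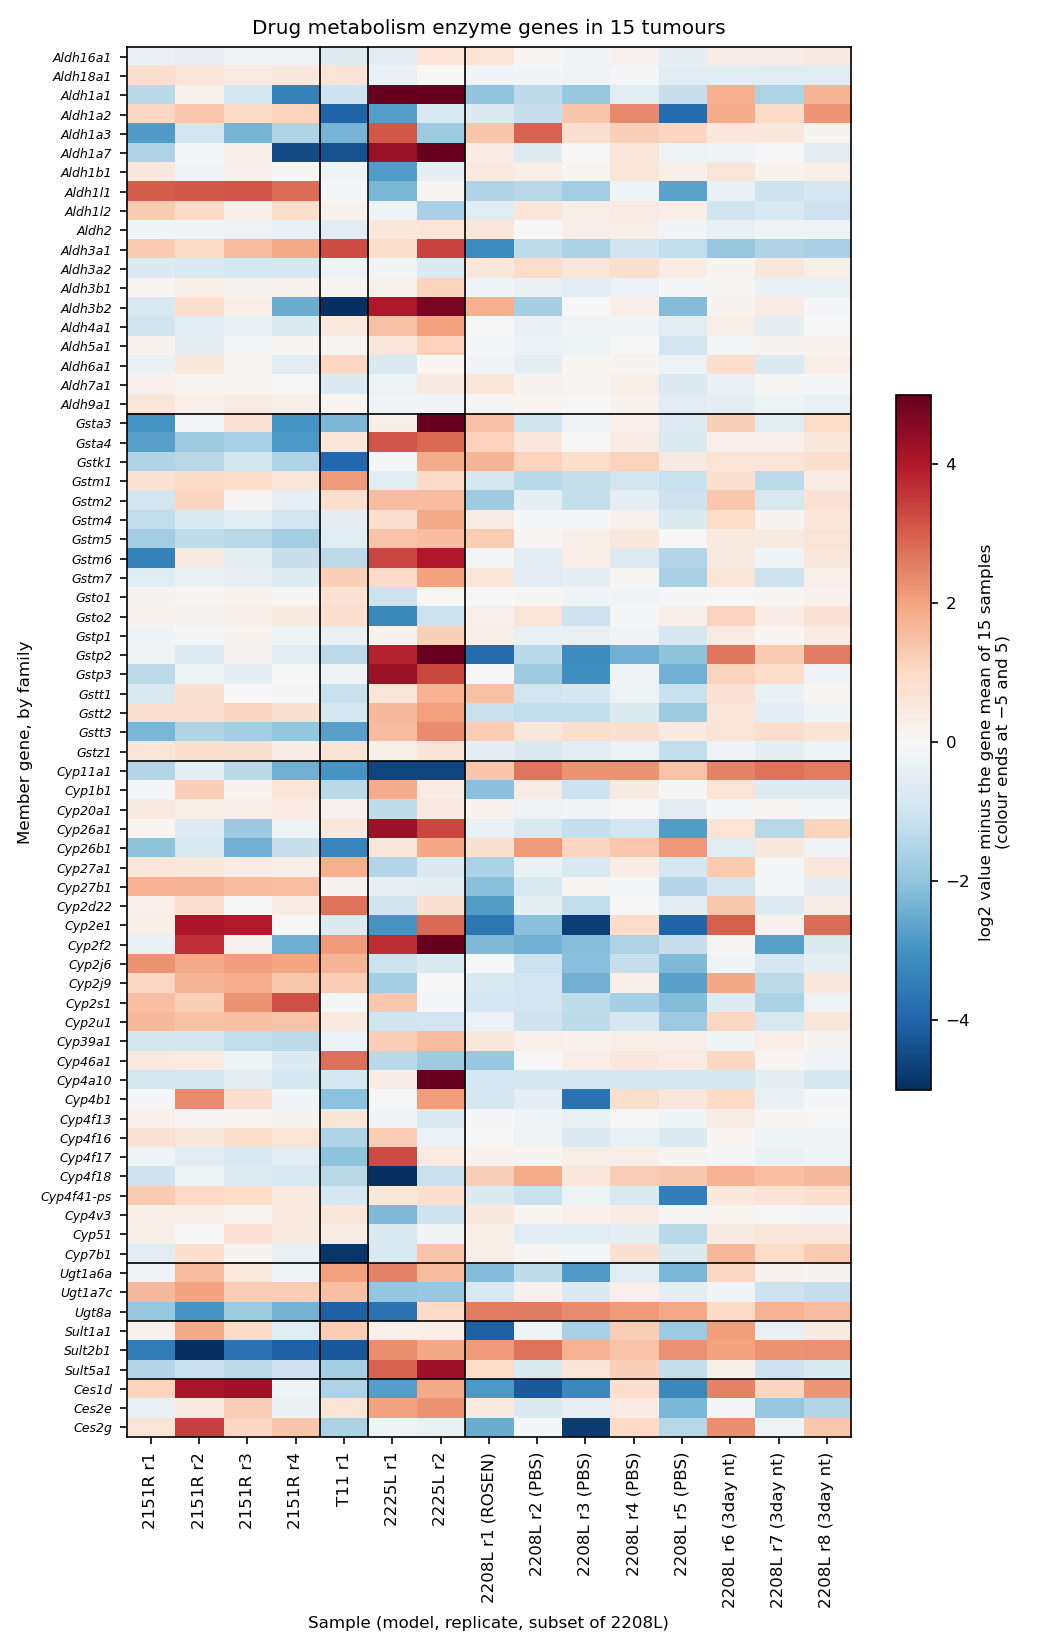
Each row is 1 of the 72 members, grouped by family between black lines, and each column is 1 of the 15 samples, grouped by model. Colour gives the log2 value minus the gene's mean over the 15 samples, with the scale ending at -5 and 5; the 2225L columns are red over most of the Gst block, where 13 of 18 genes had their highest mean.

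Among the aldehyde dehydrogenases, 7 of 19 were called higher in 2225L than in 2208L and 2 lower (47.4%, against 32.9% of all genes). Against 2151R, 6 were called higher and 4 lower (52.6%, against 48.6% of all genes). In 2151R against 2208L, 6 were called higher and 3 lower (47.4%, against 48.8% of all genes). Aldh1a1, which oxidises retinal and aldophosphamide, had values of 6.81 and 6.84 in 2225L. In 2208L it lay between -0.81 and 2.94 with a median of -0.08, in 2151R it was -0.21, 1.38, 0.26 and -2.22, and in T11 it was 0.10. Both 2225L samples were thus above every other sample, by more than 3 log2 units. The difference from 2208L was 6.29 (SE 1.05, adjusted p = 0.000600), 78.3-fold, and that from 2151R was 7.02 (SE 1.16, adjusted p = 0.000265). In 2151R against 2208L it was -0.73 (SE 0.82, adjusted p = 0.482) and was not called. Within 2208L, the highest values, 2.94 and 2.85, belonged to the 2 samples marked 3day nt whose mean of 8 skeletal muscle markers was also highest, 8.95 and 8.36. The same 2 samples had the highest fibroblast marker means of 2208L, 1.33 and 0.47, and the part of either list was not tested.

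Aldh1a7, the neighbouring paralogue, had values of 4.60 and 6.78 in 2225L, between -0.36 and 0.84 in 2208L, and -1.26, 0.18, 0.60 and -4.20 in 2151R. T11 was at -4.08. The 2225L pair again stood above all other samples, with a difference from 2208L of 5.50 (SE 0.93, adjusted p = 0.000619) that was lost when samples were weighted by their spread. Aldh3b2, which acts on fatty aldehydes, followed the same order, at 4.09 and 4.83 in 2225L, between -2.10 and 1.88 in 2208L and -5.28 in T11. Its difference from 2208L was 4.53 (SE 0.92, adjusted p = 0.00223) and was likewise lost under sample weights. The difference of Aldh1a1 from 2208L kept its call in each alternative that was run.

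Aldh3a1, the other enzyme known for oxidising aldophosphamide, set 2208L apart from the rest. It ran from -4.78 to -2.66 in 2208L with a median of -3.19, and was -0.34, -0.66, -0.10 and 0.24 in 2151R, -0.78 and 1.73 in 2225L and 1.61 in T11. No 2208L sample reached any sample of another model. Aldh3a1 was 3.09 higher in 2151R (SE 0.44, adjusted p = 7.08e-05), 8.52-fold, and 3.78 higher in 2225L (SE 0.57, adjusted p = 0.000287), 13.7-fold. Between 2225L and 2151R it differed by 0.69 (SE 0.63, adjusted p = 0.386). Aldh1a3, another retinal dehydrogenase, was lower in 2151R (-2.97, -1.05, -2.48 and -1.64) than in 2208L (0.00 to 2.79), a difference of -2.98 (SE 0.75, adjusted p = 0.00505). That call was lost when the 3day nt samples alone stood for 2208L. In 2225L the pair disagreed on Aldh1a3, at 2.96 and -1.94, and Aldh1a2 was called in none of the 3 model comparisons, with differences of 0.73, -2.16 and -2.88 (adjusted p = 0.57, 0.220 and 0.106).

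The folate enzyme Aldh1l1, which oxidises 10-formyltetrahydrofolate, was highest in 2151R. Its values there were 2.83, 2.94, 2.94 and 2.62, against -2.87 to -0.41 in 2208L, -2.46 and -0.08 in 2225L and -0.28 in T11. The 4 samples of 2151R lay close together and above all others. The difference from 2208L was 4.24 (SE 0.47, adjusted p = 6.54e-06), 18.9-fold. Its mitochondrial relative Aldh1l2 differed by 1.08 (SE 0.38, adjusted p = 0.0328), a call lost in several alternatives, among them quantile normalization and leaving out 2151R replicate 1, 2 or 4 or 2208L replicate 1, 6, 7 or 8. Aldh18a1, which starts proline synthesis, differed by 0.93 (SE 0.15, adjusted p = 0.000198). Aldh4a1, which completes proline breakdown, was instead highest in 2225L, at 0.96 and 1.52 against -1.03 to -0.18 in 2208L and -1.50 to -0.84 in 2151R. It was 1.90 higher than in 2208L (SE 0.24, adjusted p = 6.5e-05) and 2.40 higher than in 2151R (SE 0.26, adjusted p = 7.77e-06). The fatty aldehyde dehydrogenase Aldh3a2 was highest in 2208L, with differences of -1.31 in 2151R (SE 0.16, adjusted p = 2.19e-05) and -0.97 in 2225L (SE 0.21, adjusted p = 0.00369), the latter lost without 2225L replicate 2. The mitochondrial enzyme Aldh1b1 was lower in 2225L than in 2208L by -1.99 (SE 0.41, adjusted p = 0.00259). Aldh2, the main mitochondrial acetaldehyde dehydrogenase, was called only against 2151R, where 2225L was 0.79 higher (SE 0.25, adjusted p = 0.0181), and leaving out either 2225L sample ended that call. Aldh3b1 was called higher in 2151R than in 2208L (0.44, SE 0.16, adjusted p = 0.0367), a call lost in 16 of 25 alternatives.

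**Figure D2:**
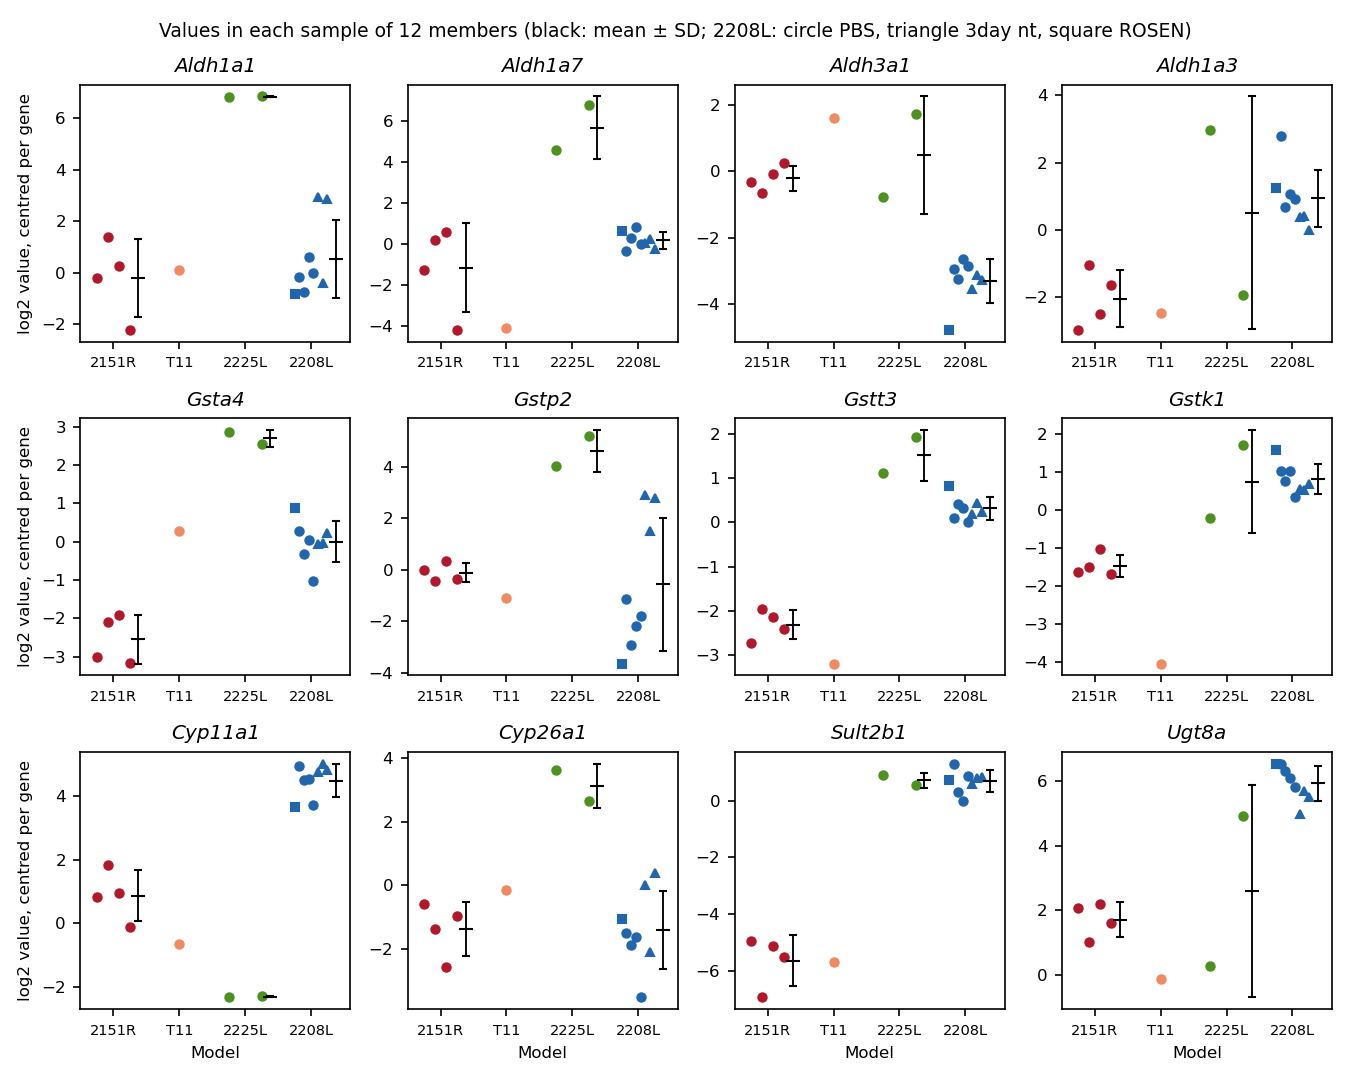
Each panel is 1 member; points are single samples by model (x axis) with the centred log2 value on the y axis, and black marks give the mean ± SD of models with more than 1 sample. Both 2225L samples lie at 6.81 or above for Aldh1a1, and the 4 samples of 2151R lie between -6.92 and -4.93 for Sult2b1 against 0.00 to 1.30 in 2208L.

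Of the 18 glutathione transferases, 11 were called higher and 1 lower in 2225L than in 2208L, with a median difference of 1.26. Of all genes, 15.6% were called higher and 17.3% lower there. Against 2151R, 10 were called higher and 2 lower, with a median of 2.10, where 22.8% of all genes were higher and 25.8% lower. In 2151R against 2208L, 3 were higher and 5 lower (44.4%, against 48.8% of all genes), with a median of -0.01. With only 2 samples, the 2225L counts depended on the fit: weighting samples left 2 higher Gst genes against 2208L and 7 against 2151R, and without 2225L replicate 2 the counts were 4 and 7. The median difference from 2208L stayed positive, at 1.46 with sample weights and 0.80 without replicate 2. Of all 36 member calls between 2225L and 2208L, sample weights ended 21, and leaving out 2225L replicate 1 or 2 ended 9 or 14. All genes called went from 5687 to 2158, 5194 and 4580, in the same order. The Aldh1a1 difference was 6.09 among samples whose library tag in the table header starts with CP (1 against 7) and 7.65 among those whose tag starts with ROSEN (1 against 1), with no test, and that of Gsta4 was 2.97 and 1.68.

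Gsta4, which conjugates 4-hydroxynonenal from oxidised lipids, separated 3 models. Values were 2.85 and 2.54 in 2225L, between -1.01 and 0.87 in 2208L, and -3.01, -2.09, -1.92 and -3.16 in 2151R, with T11 at 0.28. Neither pair of neighbouring models overlapped, and T11 fell within the range of 2208L. The gene was 2.70 higher in 2225L than in 2208L (SE 0.41, adjusted p = 0.000298) and lower in 2151R than in 2208L by -2.55 (SE 0.32, adjusted p = 2.08e-05), so that 2225L and 2151R differed by 5.24 (SE 0.45, adjusted p = 9.04e-07). Gsta3, named after its values were seen, was 0.88 and 6.51 in the 2225L pair.

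The pi class showed its range in Gstp2 and Gstp3 rather than in Gstp1, the form most studied in drug resistance. Gstp1 stayed between -0.88 and 1.15 over all 15 samples and was called in none of the 3 model comparisons, with differences of -0.00, 0.75 and 0.75 (adjusted p = 0.996, 0.104 and 0.106). Gstp2 was 4.04 and 5.20 in 2225L, 0.00, -0.43, 0.34 and -0.37 in 2151R, and between -3.65 and 2.91 in 2208L. The 2225L samples were above all others, but 2208L itself spanned more than 6 log2 units. The difference from 2208L was 5.18 (SE 1.52, adjusted p = 0.0189), and it was no longer called without either 2225L sample, with sample weights, or with only those 2 models in the fit. Gstp3, whose transcript shares no 50-base window, was 3.99 and 3.04 in 2225L and between -3.39 and 0.80 in 2208L, a difference of 4.53 (SE 0.94, adjusted p = 0.00251) that was lost under sample weights.

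The mu class genes Gstm5, Gstm7, Gstm6, Gstm2, Gstm1 and Gstm4 form 1 cluster on chromosome 3 (107895854 to 108045179). Except Gstm1, each was called higher in 2225L than in 2208L. Sample weights ended all 5 of these calls, and without 2225L replicate 2 those of Gstm2, Gstm4, Gstm5 and Gstm7 were lost. Gstm6 showed the largest of these differences, 3.84 (SE 0.75, adjusted p = 0.0017), from values of 3.85 and 4.52 in 2225L against -0.92 to 1.11 in 2208L. Gstm5 was 1.45 and 1.58 in 2225L, 0.00 to 1.32 in 2208L and -1.70 to -1.22 in 2151R, and 2151R was lower than 2208L by -1.98 (SE 0.21, adjusted p = 5.56e-06). Gstm1 went the other way in 2151R. It was 0.11, 0.38, 0.31 and 0.00 there against -1.96 to 0.22 in 2208L, a difference of 1.49 (SE 0.43, adjusted p = 0.0106) that was lost against the 3day nt samples alone, among samples titled NT, nt or PBS, and with the adipocyte marker mean in the model.

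The theta class genes Gstt3, Gstt1 and Gstt2 lie side by side on chromosome 10 and did not move as a block. Gstt3 was -2.73, -1.95, -2.14 and -2.40 in 2151R and -3.19 in T11, against 0.00 to 0.82 in 2208L and 1.11 and 1.92 in 2225L. All samples of 2151R and T11 were below all of the other models, and 2151R differed from 2208L by -2.62 (SE 0.20, adjusted p = 1.89e-07). Gstt2 was instead low in 2208L (-2.63 to -0.18) and in T11 (-1.70). Against 2208L it was 1.66 higher in 2151R (SE 0.35, adjusted p = 0.00173) and 2.62 higher in 2225L (SE 0.46, adjusted p = 0.000794). Gstt1 was called in none of the 3 model comparisons (differences of 0.11, 1.33 and 1.21, adjusted p = 0.855, 0.109 and 0.145).

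Gstk1, the mitochondrial and peroxisomal kappa enzyme, was -1.64, -1.51, -1.04 and -1.68 in 2151R against 0.33 to 1.59 in 2208L, a difference of -2.28 (SE 0.32, adjusted p = 5.27e-05). Gstz1, which also acts in tyrosine breakdown, was 1.15 higher in 2151R than in 2208L (SE 0.19, adjusted p = 0.000246) and 0.96 higher in 2225L (SE 0.25, adjusted p = 0.00906), the latter lost under sample weights and without 2225L replicate 2. Gsto2, an omega class enzyme that reduces dehydroascorbate, was the 1 Gst gene called lower in 2225L than in 2208L. It was -3.39 and -1.22 there against -1.20 to 0.97, a difference of -2.44 (SE 0.52, adjusted p = 0.00299) that was lost without 2225L replicate 1 and under sample weights. Gsto1 was called only against 2151R (-0.66, SE 0.23, adjusted p = 0.0303), and that call was lost in 9 of 17 alternatives.

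**Figure D3:**
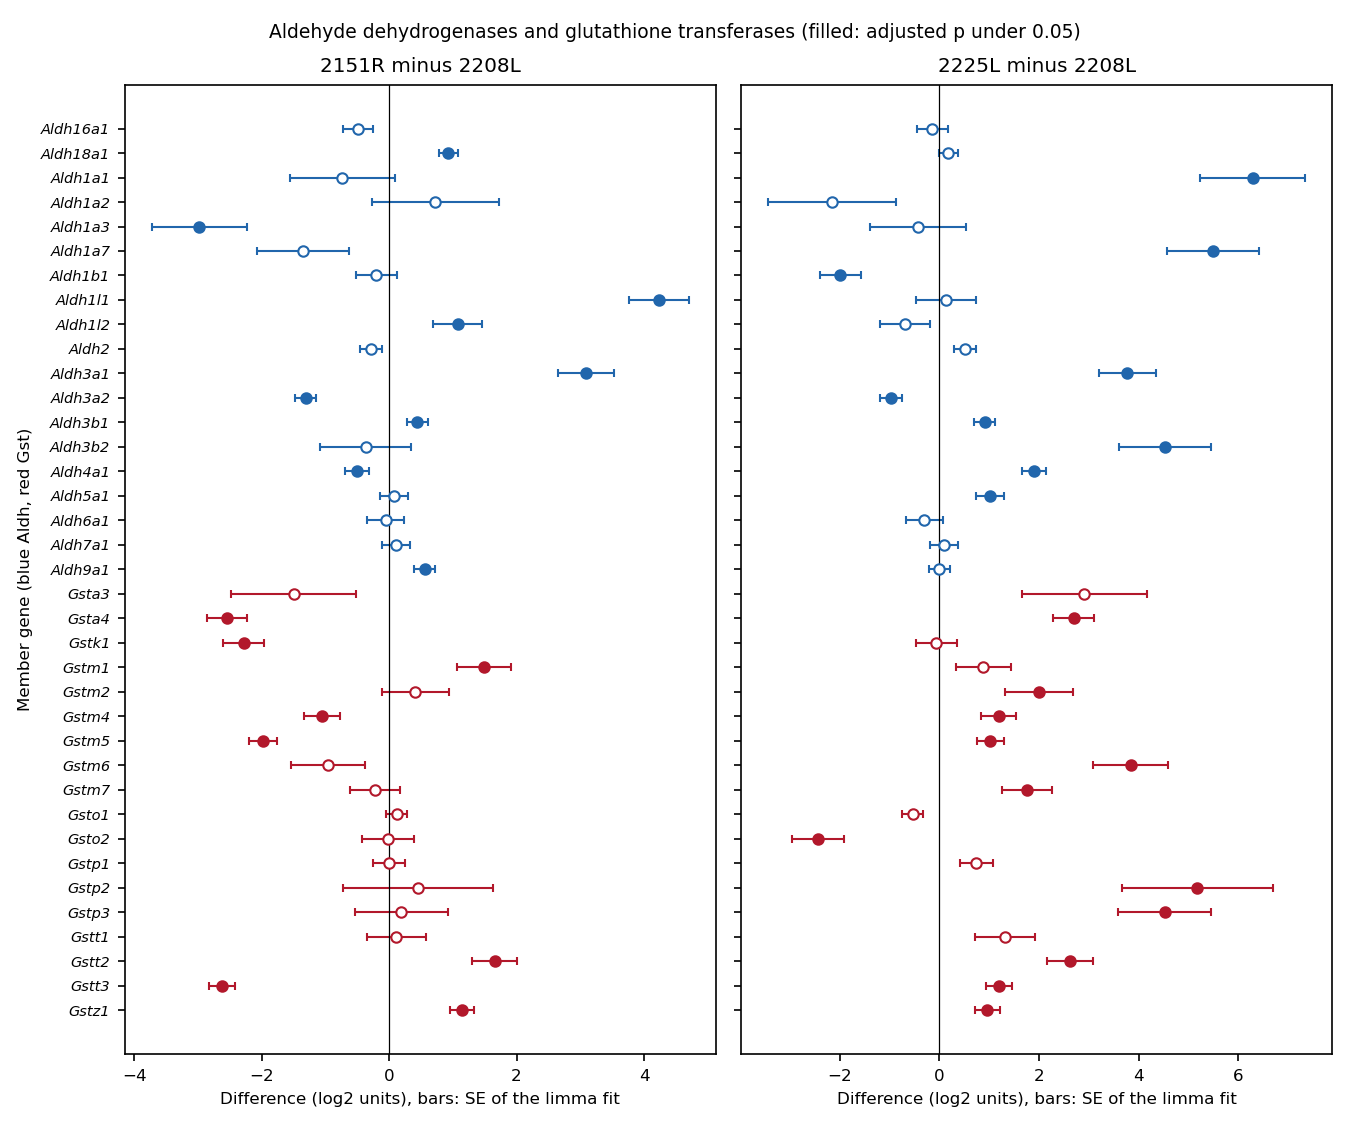
The 37 Aldh (blue) and Gst (red) genes are listed on the y axis, with the difference of 2151R (left) or 2225L (right) from 2208L in log2 units on the x axis; bars are SEs of the limma fit and filled points have an adjusted p under 0.05. On the right, 11 Gst genes lie filled above 0 and 1, Gsto2, lies filled below it. Of all genes, 15.6% were called higher and 17.3% lower in that comparison.

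P450 genes were called in both directions in each of the 3 model comparisons. In 2225L against 2208L, 6 of 26 were called higher and 4 lower (38.5%, against 32.9% of all genes). In 2151R against 2208L the counts were 6 and 4 (38.5%, against 48.8%), and in 2225L against 2151R 6 and 8 (53.8%, against 48.6%), so the shares lay on both sides of those of all genes. Cyp11a1, which cuts the side chain of cholesterol to begin steroid synthesis, marked 2208L. It ran from 3.64 to 5.0 there with a median of 4.64, against 0.81, 1.82, 0.94 and -0.13 in 2151R, -0.66 in T11 and -2.33 and -2.30 in 2225L. The 8 samples of 2208L were all above the rest. The difference was -3.63 in 2151R (SE 0.35, adjusted p = 1.68e-06) and -6.80 in 2225L (SE 0.45, adjusted p = 2.55e-07), so that 2208L was 112-fold above 2225L. Cyp4f18, which inactivates leukotriene B4, was also highest in 2208L (1.18 to 2.50), with differences of -2.08 in 2151R (SE 0.61, adjusted p = 0.0123) and -4.84 in 2225L (SE 0.78, adjusted p = 0.000474). The first of these was lost against the PBS or the 3day nt samples alone, and the second rested on values of -5.19 and -0.47.

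Retinoic acid is broken down by Cyp26a1 and Cyp26b1, and the 2 genes did not vary together. Cyp26a1 was 3.62 and 2.64 in 2225L, -0.59, -1.35, -2.56 and -0.94 in 2151R and between -3.51 and 0.40 in 2208L. It was 4.53 higher in 2225L than in 2208L (SE 0.80, adjusted p = 0.000874) and differed by 0.04 between 2151R and 2208L (SE 0.62, adjusted p = 0.963). Cyp26b1 was lower in 2151R (-2.76, -1.55, -3.17 and -1.89) than in 2208L (-1.36 to 1.39), with a difference of -2.48 (SE 0.53, adjusted p = 0.00165), and 2225L differed from 2208L by 0.34 (SE 0.68, adjusted p = 0.739).

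The lung-type P450 Cyp2f2 had the largest upward difference of any member in 2225L against 2208L, 6.44 (SE 1.17, adjusted p = 0.00101), from values of 2.05 and 4.30 against -4.37 to -1.59, a call lost under sample weights. In 2151R the values -2.03, 2.0, -1.49 and -4.12 scattered widely. Cyp4a10, a fatty acid hydroxylase, was called 6.21 higher (SE 1.55, adjusted p = 0.00803), but its 2225L values were 1.27 and 11.24 while 11 of the other 13 samples shared the value 0.00, so the size rests on 1 sample. In 2151R, Cyp27b1, which activates vitamin D, was 1.79, 1.78, 1.64 and 1.57, above every other sample, and 2.37 higher than in 2208L (SE 0.35, adjusted p = 8.91e-05). Cyp2j6 and Cyp2s1 were higher in 2151R than in 2208L by 3.06 (SE 0.38, adjusted p = 2.05e-05) and 3.22 (SE 0.43, adjusted p = 3.93e-05). Cyp39a1, an oxysterol hydroxylase, was lowest in 2151R (-1.11 to -0.72) and highest in 2225L (1.44 and 1.74), and those 2 models differed by 2.48 (SE 0.21, adjusted p = 8.34e-07). Of the other P450 genes picked by name, Cyp1b1, Cyp27a1 and Cyp51 were called in none of the 3 model comparisons.

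Sult2b1, which adds sulfate to cholesterol, had the largest member difference between 2151R and 2208L. Its values were -4.93, -6.92, -5.13 and -5.51 in 2151R and -5.67 in T11, against 0.00 to 1.30 in 2208L and 0.90 and 0.53 in 2225L. The 2 sets of models were more than 4 log2 units apart. The difference was -6.31 (SE 0.33, adjusted p = 4.45e-09), 79.1-fold lower in 2151R, and 2225L was 6.34 above 2151R (SE 0.47, adjusted p = 2.35e-07). The same split of models appeared in the epithelial markers, 7 of which were called lower in 2151R than in 2208L and 1, Krt5, higher. The part of those markers in the difference was not tested, and because values are centred per gene they do not show whether a marker was absent. Sult5a1 was 3.98 and 5.28 in 2225L against -0.15 to 2.23 in 2208L, a difference of 3.67 (SE 0.60, adjusted p = 0.000471), lost under sample weights. Sult1a1, a phenol sulfotransferase, was called in none of the 3.

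Ugt8a, which builds the myelin lipid galactosylceramide, was highest in 2208L, between 4.96 and 6.54. It was 2.06, 1.0, 2.17 and 1.59 in 2151R, 0.26 and 4.90 in 2225L and -0.14 in T11, and no sample reached the lowest of 2208L. The difference was -4.22 in 2151R (SE 0.63, adjusted p = 0.000104) and -3.35 in 2225L (SE 0.82, adjusted p = 0.00707), the latter lost without 2225L replicate 1. The 2 phenol-conjugating Ugt1a forms went opposite ways in 2225L against 2208L. Ugt1a6a differed by 3.01 (SE 0.88, adjusted p = 0.0185) and Ugt1a7c by -1.42 (SE 0.37, adjusted p = 0.00983), and both calls were lost without either 2225L sample and under sample weights. Ugt1a7c was steadier in 2151R, at 1.36, 1.75, 0.94 and 1.01 against -1.46 to 0.00 in 2208L, a difference of 2.02 (SE 0.28, adjusted p = 6.01e-05).

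Of the 3 carboxylesterases, 0 were called in 2151R against 2208L, where 48.8% of all genes were called. An unadjusted limma p under 0.05 was found for 0 of them, with differences of 3.14 for Ces1d (adjusted p = 0.102) and 2.15 for Ces2g (adjusted p = 0.120). With 3 genes, such counts say little about the family. In 2225L against 2208L, 1 of 3 was called (33.3%, against 32.9% of all genes). This was Ces2e, at 1.56 and 1.82 against -2.74 to 0.03. The difference of 2.87 (SE 0.68, adjusted p = 0.00577) was no longer called without 2225L replicate 2 and under sample weights.

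**Figure D4:**
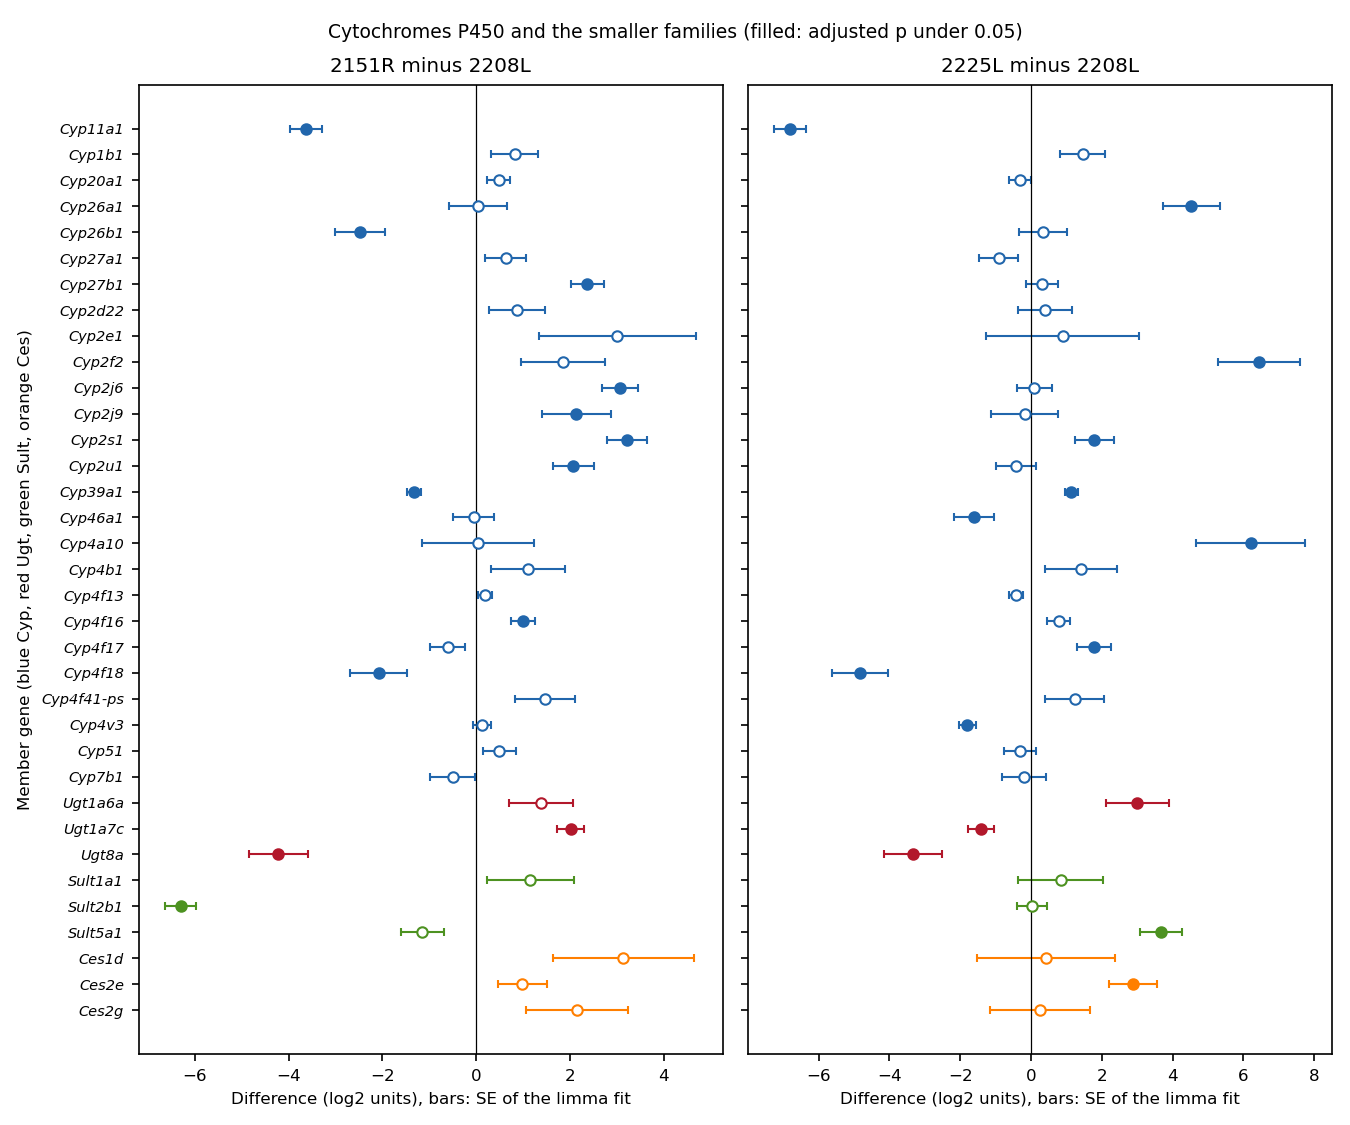
The 26 Cyp (blue), 3 Ugt (red), 3 Sult (green) and 3 Ces (orange) genes are listed on the y axis, with the difference of 2151R (left) or 2225L (right) from 2208L in log2 units on the x axis; bars are SEs of the limma fit and filled points have an adjusted p under 0.05. Cyp11a1 and Ugt8a are filled below 0 on both sides, and Sult2b1 is filled, at -6.31, on the left alone.

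Partner genes from 5 lists were read beside the families. Of 8 genes of glutathione supply, 5 were called up and 0 down in 2151R against 2208L, with a median difference of 0.59, where 26.1% of all genes were called up and 22.7% down. They included Slc7a11, the cystine importer (2.01, SE 0.32, adjusted p = 0.000185), and Chac1, which degrades glutathione (2.20, SE 0.43, adjusted p = 0.000914). In 2225L, where 15.6% of all genes were called up and 17.3% down, 3 of the 8 were called higher and 1, Slc7a11, lower than in 2208L (-1.87, SE 0.42, adjusted p = 0.00407), a call lost under sample weights and without 2225L replicate 2. Among 7 membrane glutathione transferases and P450 partners, Mgst1 stood out. It was -4.48, -2.44, -3.31 and -3.87 in 2151R and -6.37 in T11, against 0.00 to 1.82 in 2208L and 1.33 and 1.97 in 2225L, and 2151R differed from 2208L by -4.26 (SE 0.38, adjusted p = 7.98e-07). Mgst2 was lower in 2225L than in 2208L by -3.07 (SE 0.28, adjusted p = 5.45e-06).

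Among 24 measured enzymes of other oxidation and conjugation steps, 12 were called up and 3 down in 2151R against 2208L (62.5%, against 48.8% of all genes). In 2225L against 2208L, 4 were higher and 6 lower (41.7%, against 32.9%). The retinol and ethanol dehydrogenase Adh7 was 5.08, 4.34, 4.98 and 4.93 in 2151R and 5.80 in T11, and at or below 0.00 in every sample of 2225L and 2208L. Its difference between 2151R and 2208L was 6.33 (SE 0.53, adjusted p = 4.63e-07), the largest in that comparison among the partner lists. The lactonase Pon3 was 3.99 higher in 2151R than in 2208L (SE 0.24, adjusted p = 2.0e-08). The carbonyl reductase Cbr3, which reduces anthracyclines, was 3.77 higher in 2225L than in 2208L (SE 0.44, adjusted p = 3.43e-05), at 2.38 and 2.91 against -2.10 to -0.05. Of 16 measured receptors and sensors, 5 were called up and 4 down in 2151R against 2208L, and 3 up and 3 down in 2225L, 56.2% and 37.5% of them, against 48.8% and 32.9% of all genes. Nr1i3, the constitutive androstane receptor, was 2.36 and 3.01 in 2225L against -0.67 to 0.35 in 2208L, a difference of 2.85 (SE 0.27, adjusted p = 6.3e-06). In 2151R, the aryl hydrocarbon receptor repressor Ahrr was 1.90 higher than in 2208L (SE 0.43, adjusted p = 0.00248) while Ahr itself was lower by -0.88 (SE 0.18, adjusted p = 0.0011).

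T11 is 1 sample, so its values have no test. It lay outside the range of the other 14 samples for 20 of 72 members (27.8%), against 26.8% of all genes, above it for 8 (17.4% of all genes) and below it for 12 (9.47% of all genes). The farthest below was Cyp7b1, an oxysterol hydroxylase, at -4.26 where the others ran from -0.16 to 2.25. Aldh3b2 was at -5.28 where the others ran from -2.38 to 4.83, and Gstk1 at -4.05 where they ran from -1.68 to 1.72. Above the range, Cyp46a1, the brain cholesterol hydroxylase, was at 1.94 where the others ran from -2.73 to 0.19. Cyp2d22 was at 2.09 where the others ran from -3.42 to 0.70, Gstm1 at 1.52 where they ran from -1.96 to 0.38, and Gsto1 at 0.67 where they ran from -1.11 to 0.17.

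Within 2208L, the 4 PBS and 3 3day nt samples were compared in a fit of their own. In PBS, 4 members were called higher and 11 lower, 15 of 72 (20.8%), where 34.0% of all genes were called, 17.4% higher and 16.5% lower. Values did not overlap for 18 members (25%) and for 44.8% of all genes. Of the 18 Gst genes 5 were called, all lower in PBS. Gstp2 was -1.15, -2.91, -2.19 and -1.79 in PBS and 2.91, 1.52 and 2.78 in 3day nt, a difference of -4.42 (SE 0.50, adjusted p = 0.00348). Every 3day nt sample was above every PBS sample by more than 2 log2 units. Gstp3 differed by -2.49 (SE 0.69, adjusted p = 0.0341) and Gstp1 by -0.77 (SE 0.18, adjusted p = 0.0193). Cyp51, which demethylates lanosterol in cholesterol synthesis, was -0.57, -0.63, -0.52 and -1.43 in PBS and 0.40, 0.56 and 0.51 in 3day nt, a difference of -1.28 (SE 0.24, adjusted p = 0.01). Ugt1a6a differed by -2.20 (SE 0.55, adjusted p = 0.0241).

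Higher in PBS were Aldh1l2, Cyp26b1, Cyp4f17 and Ugt8a. Aldh1l2 was 0.30, -0.05, 0.07 and 0.03 in PBS and -1.33, -1.10 and -1.34 in 3day nt, a difference of 1.34 (SE 0.13, adjusted p = 0.00243). Cyp26b1 differed by 1.76 (SE 0.38, adjusted p = 0.0149). These calls rest on few samples. The mean of 8 muscle markers was 8.95, 0.25 and 8.36 in the 3day nt samples and -4.39 to 1.59 in PBS. Without replicates 6 and 8, the 2 with high muscle values, replicate 7 alone stands for 3day nt, so that setting cannot test the calls. The median difference over all genes was then 0.0006, against -0.05 with all samples. Leaving out replicate 6 or 8 alone left 1 member called higher and 2 lower. All genes called then fell from 5864 to 2950 or 2379. The part of muscle in these calls was not tested. Without replicates 2, 3 or 5, 5, 4 and 6 were called lower, and without replicate 7, 19. All genes called were then 3886, 3848, 6800 and 5965, in the same order.

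Adipocyte marker means also varied between samples, and 2 members are given beside them. The mean of 9 adipocyte markers was 1.80, 3.82, 3.51 and 0.64 in 2151R, -1.75 in T11, -3.40 and 1.46 in 2225L, and -3.92 to 1.72 in 2208L. In 2208L it ran from -3.92 to 1.64 in PBS and from 1.32 to 1.72 in 3day nt. Ces1d, a triglyceride hydrolase of fat and liver, was 1.71, 4.66, 4.78 and 0.36 in 2151R, -0.95 in T11, -2.18 and 2.49 in 2225L, and -3.60 to 3.08 in 2208L. Its highest 2 values fell in the 2 samples with the highest adipocyte mean. Cyp2e1, the ethanol-oxidising P450, named here after its values were seen, was 2.38, 6.15, 6.04 and 2.05 in 2151R and -0.86 and 4.93 in 2225L. In PBS the 1 sample with a positive adipocyte mean, replicate 4 at 1.64, had the highest Ces1d (1.48) and Cyp2e1 (2.99) of the 4. Ces1d was called lower in PBS (-4.35, SE 1.20, adjusted p = 0.0327), and Cyp2e1 was not (-4.47, SE 1.44, adjusted p = 0.0518). With the adipocyte mean as a covariate, chosen after seeing the data, 0 members were called by limma between PBS and 3day nt and 8 had an unadjusted p under 0.05, while 139 of all 17271 genes were called. Every 3day nt sample but only 1 PBS sample had a positive adipocyte mean, so covariate and group can hardly be told apart there. Between the models, the same covariate left 13 higher and 19 lower in 2151R against 2208L and 29 higher and 10 lower in 2225L against 2208L. All genes called went from 8434 to 8841 in the first comparison and from 5687 to 6594 in the second. The 2225L samples, at adipocyte means of -3.40 and 1.46, had Aldh1a1 values of 6.81 and 6.84. The part of adipocyte content in the values of these members was not tested.

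**Figure D5:**
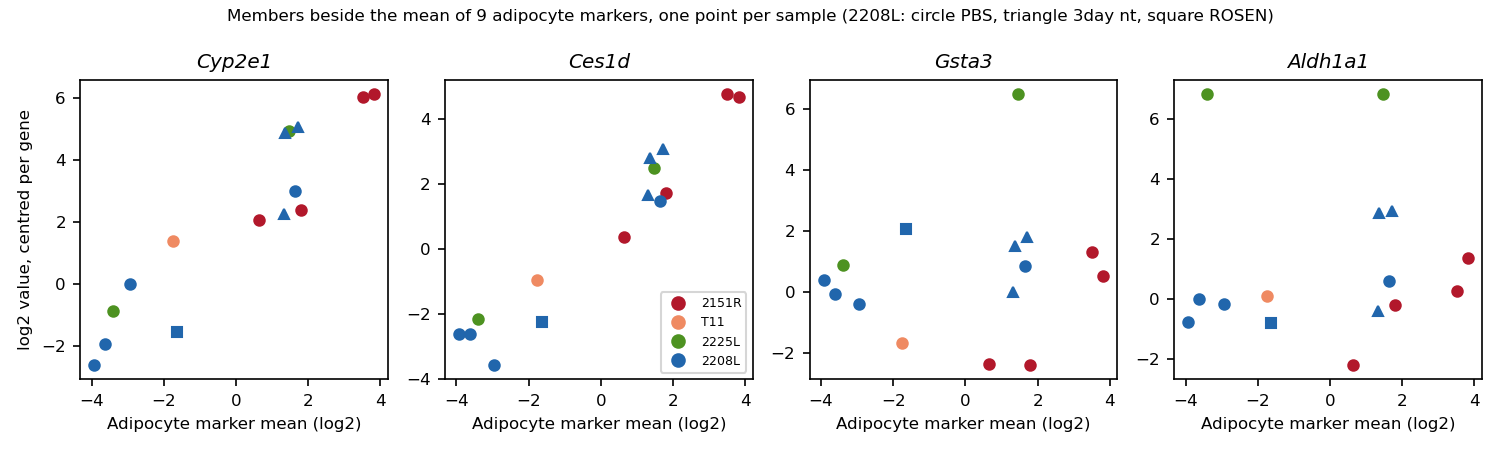
The centred log2 value of 4 members (y axes) is set against the mean of 9 adipocyte markers (x axes, log2), with 1 point per sample coloured by model. For Cyp2e1 and Ces1d the 2 highest values belong to the 2151R samples with adipocyte means of 3.82 and 3.51. For Aldh1a1 the 2225L samples are highest, at adipocyte means of -3.40 and 1.46. The part of adipocytes in these values was not tested.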

How the data were processed

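Messenger RNA of 15 tumours was sequenced from poly(A) libraries, per the labels' protocols. The submitters' processing notes name STAR, Salmon and the build mm10, with no versions. The authors deposited log2 values for 17271 genes, centred for each gene on a median whose reference samples and offset are not given in the sources used here. The values ran from -14.55 to 13.11. They hold no counts, so depth is unknown and precision rests on the spread between samples. In 727 genes (4.21%) at least 2 samples shared exactly 1 value, and 2 members, Cyp4a10 and Ces1d, were among them.

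Groups are the models that the titles name. In the series text 2151R and 2225L lack a digit, and the spelling of the titles was kept. Replicates were numbered in accession order and pair no samples. Genes were tested with limma (version 3.58.1, under R 4.3.3; lmFit, then eBayes with no trend), in 1 fit of all 15 samples with a mean per model, and the PBS and 3day nt samples of 2208L in a fit of those 7. T11 has 1 sample and was only described. The alternatives were other scalings, eBayes with a trend or robust, sample weights, filters, a minimum of 1 log2 unit, fewer samples, library prefix as a covariate and, chosen after seeing the data, the adipocyte marker mean as a covariate.

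On simulated data with 200 of 17271 genes changed, for 2151R against 2208L the test found 79% of the genes shifted 2 log2 units and 45% of the genes shifted 1. The figures were 59% and 25% for 2225L against 2208L, 55% and 16% for 2225L against 2151R, and 80% and 39% for PBS against 3day nt. In the same order, calls on unchanged genes were 14 of 138, 1 of 85, 5 of 76 and 4 of 123. Far more genes were called in the data (48.8% in 2151R against 2208L), so these rates hold only for the simulated setting.

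Named genes are the 3 called members with the largest difference in each direction per family and comparison, among those whose groups do not overlap. A list of 28 members was added whatever their values, of which 22 were measured, with the 2 called genes of largest difference in each list of partner genes and the members of T11 farthest outside the other samples. Aldh4a1, Cyp39a1, Gstm5, Gsta3, Cyp2e1 and Ahr were singled out after their values were seen. The partner lists are retinal and oxazaphosphorine aldehyde dehydrogenases, glutathione supply, membrane glutathione transferases and microsomal partners, other oxidation and conjugation enzymes, and xenobiotic receptors and sensors. Markers of adipocytes, skeletal muscle, macrophages, fibroblasts, endothelium and epithelium were read beside them. The members and lists were chosen with earlier results of these data known. Promoters are from RefSeq (GRCm38.p6) and coding sequences from GENCODE of the same build.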

Additional observations from a re-analysis of the deposited data

Results flagged for a closer look

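A sample stood apart from the others of its group by Dixon's test in 6 of the 176 groups of samples examined for the named members, where chance alone gives about 1 in 20, or 8.8. The groups were 2151R, 2208L and, within 2208L, PBS, so they are not separate and 8.8 is only a rough guide. In 2208L, Aldh1a3 was 2.79 in replicate 2 where the other samples ran from 0.00 to 1.25. Aldh3a1 was -4.78 in replicate 1, the sample marked ROSEN, where the others ran from -3.55 to -2.66. Cyp46a1 was -2.73 in that same sample, where the others ran from -0.97 to 0.19. Cyp4a10 was 0.36 in 2151R replicate 3 and 0.41 in 2208L replicate 7, and all other samples of those models held the shared value 0.00. With such ties any other value stands apart by this test, so those 2 results carry no weight. Cyp51 was -1.43 in PBS replicate 5, where the other PBS samples ran from -0.63 to -0.52.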

How the results depend on the processing

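No paired analysis was possible because replicate numbers, absent from the titles, were given in accession order. The counts of members called in 2151R against 2208L stayed within 1.5 times of 16 higher and 14 lower under each alternative. All genes called there were 8434 in the main fit and ran from 5151 to 11369 in the alternatives. In 2225L against 2208L the 27 higher became 9 with sample weights and ranged from 17 to 29 when 1 sample was left out. All genes called in that comparison fell from 5687 to 2158 with sample weights and ranged from 4580 to 6048 with 1 sample left out. In 2225L against 2151R the 15 lower became 9 with sample weights, where all genes called fell from 8398 to 5252. For PBS against 3day nt, the 4 higher became 8 with each sample centred on its median, 14 with sample weights, 2 with a minimum of 1 log2 unit and 2 with all 15 samples in the fit. All genes called went from 5864 to 7531, 11692, 2208 and 4463, in the same order. The 4 higher became 0 with the adipocyte covariate, which was chosen after seeing the data, and ranged from 1 to 7 with 1 sample left out. The 11 lower became 32 with sample weights and 0 with the adipocyte covariate, and ranged from 2 to 19 with 1 sample left out. All genes called ranged from 2379 to 6800 with 1 sample left out and were 139 with the adipocyte covariate. By limma, 8 members had an unadjusted p under 0.05 with that covariate. Without replicates 6 and 8 only 1 3day nt sample remains, so counts for that setting are not given. No named gene reversed a called direction under the alternatives run. The median difference over all genes between PBS and 3day nt moved from -0.05 to 0.02 when samples were centred. The cause of these changes was not tested, and depth is unknown.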

Other observations

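Markers of other compartments were also called between the models. Of all genes, 48.8% were called in 2151R against 2208L and 32.9% in 2225L against 2208L. Macrophage markers were called higher in 2151R than in 2208L for 6 of 8 genes and lower for 0, and lower in 2225L than in 2208L for 4 of 8 and higher for 0. Fibroblast markers were called higher in 2151R than in 2208L for 4 of 7 (57.1%, near the share of all genes), and in 2225L than in 2208L for 1 of 7. Endothelial markers were called higher in 2151R than in 2208L for 5 of 6, and 0 of 6 were called in 2225L against 2208L. Their part in the members' differences was not tested.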
